A study of Mus musculus with 12 samples.

Results

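Neutrophil granule genes are the 10 genes S100a8, S100a9, Ngp, Camp, Ltf, Elane, Mpo, Lcn2, Retnlg and Mmp9, which were found by name in the table of gene levels. All 10 were present as 1 row each among 37432 genes, and all 10 were among the 16215 genes that passed the filter on low levels. Elane and Mpo were kept apart as early genes, and the other 8 were taken as late genes. The libraries were made from the cochlea, the spiral organ of hearing, of male mice at P14, cut into an apical, a middle and a basal turn. Wild-type mice were purchased, and the libraries labelled "WT" in the genotype field came from them. Libraries labelled "KO" there and "ho" in the title came from mice homozygous for the 35delG mutation of Gjb2, the gene of the gap junction protein connexin 26. The homozygous mice were grown from male embryonic stem cells by tetraploid complementation, in which the stem cells form the embryo and tetraploid cells the placenta, and were raised by ICR foster mothers after a cesarean. Genotype and origin of the mice therefore cannot be told apart in any comparison. Genotype and turn made 6 groups of 2 repeats, 12 libraries in all, and the number of mice behind a library was not given in the sources used here. The p-values below measure the spread between these repeats, pooled over the 6 groups, whatever made them differ.

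Neutrophils are short-lived phagocytes made in the bone marrow. Their granules are filled in order: promyelocytes make the primary granule proteins, myelocytes and metamyelocytes then make those of secondary and tertiary granules, and the transcripts of the early proteins are largely lost by the time the cell leaves the marrow. Transcripts of Elane and Mpo are therefore known as marks of immature granulocytes, whereas S100a8, S100a9 and Retnlg stay abundant in circulating neutrophils. C/EBP factors, PU.1 and RUNX1 are known regulators of these genes.

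The bases before the start of 6 of the genes are printed as examples, and each of the 6 held a motif match. RefSeq promoter sequences of GRCm38.p6 matched 9 of the 10 genes, and Mmp9 was not matched. Only bases outside the span of the gene in the deposited table are shown, 5′ to 3′ on the strand of the gene, with motif matches in capitals.
Elane, chr10:79886062-79886246, plus strand: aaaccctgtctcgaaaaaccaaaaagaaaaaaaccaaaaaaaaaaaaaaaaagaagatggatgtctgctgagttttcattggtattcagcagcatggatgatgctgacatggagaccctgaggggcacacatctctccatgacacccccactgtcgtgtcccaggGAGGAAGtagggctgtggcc
Mpo, chr11:87793534-87793580, plus strand: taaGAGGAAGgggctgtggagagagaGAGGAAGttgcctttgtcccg
Ngp, chr9:110419558-110419746, plus strand: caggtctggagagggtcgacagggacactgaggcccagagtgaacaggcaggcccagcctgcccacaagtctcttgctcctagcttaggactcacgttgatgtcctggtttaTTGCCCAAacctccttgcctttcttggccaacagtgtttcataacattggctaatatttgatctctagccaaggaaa
Ltf, chr9:111019042-111019270, plus strand: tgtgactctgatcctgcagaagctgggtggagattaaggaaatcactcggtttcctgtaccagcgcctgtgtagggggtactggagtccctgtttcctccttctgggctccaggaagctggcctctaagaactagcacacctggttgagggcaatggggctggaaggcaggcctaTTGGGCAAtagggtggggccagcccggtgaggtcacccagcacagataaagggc
S100a8, chr3:90668821-90668977, plus strand: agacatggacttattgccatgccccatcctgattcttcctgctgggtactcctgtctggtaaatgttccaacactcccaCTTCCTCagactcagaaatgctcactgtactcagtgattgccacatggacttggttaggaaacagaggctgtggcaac
S100a9, chr3:90695722-90695971, minus strand: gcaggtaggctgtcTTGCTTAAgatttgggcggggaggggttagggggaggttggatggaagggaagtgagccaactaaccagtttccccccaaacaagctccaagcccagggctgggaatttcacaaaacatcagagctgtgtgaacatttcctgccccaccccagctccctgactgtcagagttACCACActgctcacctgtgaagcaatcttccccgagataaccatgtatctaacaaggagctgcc
The letters of 3 motifs were searched on both strands in the 250 bases before each RefSeq start: TTGCNNAA for C/EBP, GAGGAAG for PU.1 and TGTGGT for RUNX. The C/EBP letters were found before 5 of the 9 genes (Ngp, Ltf, Lcn2, Retnlg and S100a9) and before 9.56% of all 32851 promoters. The PU.1 letters were found before 4 of the 9 (Elane, Mpo, Lcn2 and S100a8) and before 10.6% of all promoters, and the early genes Elane and Mpo held these and not the C/EBP letters. The RUNX letters were found before S100a9 alone of the 9 and before 14.0% of all promoters. Camp, which is not printed, was the only one of the 9 without a match to any of the 3 motifs. The capitals in the Mpo line are 2 PU.1 matches, at positions -247 to -241 and -224 to -218 counted from the RefSeq start. A match is a description of the letters and was not tested as a site.

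Levels are FPKM, fragments per length of transcript and per number of mapped fragments, divided by 1 scaling factor per library, so that genes and libraries can be compared. The values carry no steps of whole reads, and the sequencing depth behind them is unknown. The 10 genes lie on 6 chromosomes of mm10. S100a8 (ENSMUSG00000056054.9, chr3:90668978-90670035) and S100a9 (ENSMUSG00000056071.12, chr3:90692632-90695721) are neighbours on chromosome 3. Camp (ENSMUSG00000038357.10, chr9:109847379-109849617), Ngp (ENSMUSG00000032484.8, chr9:110419747-110423012) and Ltf (ENSMUSG00000032496.7, chr9:111019271-111042767) lie on chromosome 9, and Lcn2 (ENSMUSG00000026822.14, chr2:32384633-32387797) and Mmp9 (ENSMUSG00000017737.2, chr2:164948219-164955850) on chromosome 2. Elane (ENSMUSG00000020125.7, chr10:79886247-79888215), Mpo (ENSMUSG00000009350.13, chr11:87793581-87804413) and Retnlg (ENSMUSG00000022651.6, chr16:48872621-48874496) complete the list.

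Some libraries stood apart before any group was compared. Homozygous middle repeat 1 held 370 of 16215 tested genes (2.28%) at over 2 times the level of every other library, all 10 granule genes among them, against 2 to 129 genes in the other 11 libraries and none of the 10. The targeted gene Gjb2 was read at 139 to 433 scaled FPKM in the wild-type libraries and at 58.4 to 449 in the homozygous ones, and its level does not show the 35delG allele. Genes of nerve went against the order of the turns between genotypes: summed over 12 genes of neurons and Schwann cells, the wild-type middle and homozygous basal libraries were at 6883 to 20706 scaled FPKM and the wild-type basal and homozygous middle libraries at 764 to 6192. The homozygous basal libraries also held little Otoa, the gene of otoancorin, which anchors the tectorial membrane (1.06 and 0.478, against 17.2 to 192 in the other 10). Every comparison of the middle and basal turns below rests on these libraries. The turn labels were used as given, and whether those of the middle and basal turns are exchanged in 1 genotype was not tested. If they were, each genotype difference given for these turns would set unlike turns against each other.

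The S100 genes gave the highest levels. S100a8 and S100a9 encode the 2 chains of calprotectin, the most abundant cytosolic protein of neutrophils. S100a9 was at 99.2 and 12.8 scaled FPKM in repeats 1 and 2 of the wild-type apical turn, 15.3 and 93.6 in the wild-type middle turn, 158 and 899 in the wild-type basal turn, 43.9 and 179 in the homozygous apical turn, 2618 and 136 in the homozygous middle turn and 46.5 and 68.9 in the homozygous basal turn. S100a8, in the same order, was at 88.0 and 12.4, 12.4 and 81.3, 150.0 and 824, 37.1 and 147, 2109 and 120.3, and 41.7 and 50.4. Both genes were highest in homozygous middle repeat 1 and second in wild-type basal repeat 2, and both were lowest in wild-type apical repeat 2 and wild-type middle repeat 1. Their ratio hardly moved: S100a9 was 1.03 to 1.37 times S100a8 in every library, while each alone ranged over 205-fold and 171-fold.

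The secondary granule genes, at lower levels, had the same 2 highest and the same 2 lowest libraries as the S100 genes. Ngp, neutrophilic granule protein, was at 39.9 and 4.83 scaled FPKM in the wild-type apical turn, 7.24 and 30.4 in the middle turn and 44.1 and 113 in the basal one, and at 16.2 and 78.7, 687 and 41.4, and 17.5 and 23.8 in the homozygous turns. Camp, the precursor of the antimicrobial peptide CRAMP, was at 17 and 1.86, 3.06 and 12.2, and 27.8 and 92.3 in the wild-type turns and at 4.44 and 31.8, 327 and 12.5, and 5.37 and 7.43 in the homozygous ones. In both genes homozygous middle repeat 1 was far above its own repeat, by 16.6-fold for Ngp and 26.1-fold for Camp, and the homozygous basal repeats were close, at 1.36-fold and 1.38-fold. Ltf, lactoferrin, which binds iron, was at 12.1 and 1.28, 1.64 and 11.2, and 17.2 and 38.7 scaled FPKM in the wild-type turns and at 5.45 and 20.3, 169 and 13.5, and 5.52 and 6.89 in the homozygous ones. Lcn2, which binds bacterial siderophores, was at 19.6 and 2.01, 3.89 and 16.6, and 33.0 and 54.8 in the wild-type turns and at 5.97 and 26.4, 246 and 16.9, and 5.76 and 10.1 in the homozygous ones. The level of both iron-withholding genes in wild-type basal repeat 2 was the second highest, behind homozygous middle repeat 1 by 4.37-fold for Ltf and 4.49-fold for Lcn2.

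Retnlg and Mmp9 are known from later stages. Retnlg, a resistin-like secreted protein of mature mouse neutrophils, was at 13.1 and 1.60 scaled FPKM in the wild-type apical turn, 1.55 and 10.9 in the middle turn and 14.7 and 57.7 in the basal one, and at 6.16 and 13.9, 293 and 18.0, and 6.69 and 8.87 in the homozygous turns. Mmp9, the gelatinase of tertiary granules, was at 3.25 and 0.494, 0.471 and 2.74, and 4.58 and 9.49 in the wild-type turns and at 3.50 and 5.06, 62.9 and 3.63, and 2.62 and 1.51 in the homozygous ones. Osteoclasts also express Mmp9, so its level need not come from neutrophils. The homozygous apical libraries were both above the wild-type apical libraries in Mmp9, which held for none of the other 9 genes.

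The 2 early genes were the lowest of the list by median and did not follow the late genes throughout. Elane, the elastase of primary granules, was at 1.81 and 0.261 scaled FPKM in the wild-type apical turn, 1.01 and 2.58 in the middle turn and 4.10 and 3.93 in the basal one, and at 0.162 and 14.7, 66.3 and 1.91, and 0.543 and 0.746 in the homozygous turns. Mpo, myeloperoxidase, which makes hypochlorous acid, was at 5.21 and 0.582, 1.16 and 3.38, and 6.41 and 4.6 in the wild-type turns and at 0.494 and 15.4, 77.2 and 3.04, and 0.723 and 1.34 in the homozygous ones. Both were highest in homozygous middle repeat 1, as the late genes were, but the second highest library was homozygous apical repeat 2, and wild-type basal repeat 2 was below its own repeat. The wild-type basal repeats were 1.04-fold apart in Elane and 1.39-fold in Mpo, against 1.66-fold to 5.71-fold in the 8 late genes. The homozygous apical repeats were 90.4-fold apart in Elane and 31.1-fold in Mpo, against 1.45-fold to 7.17-fold in the late genes.

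**Figure D1:**
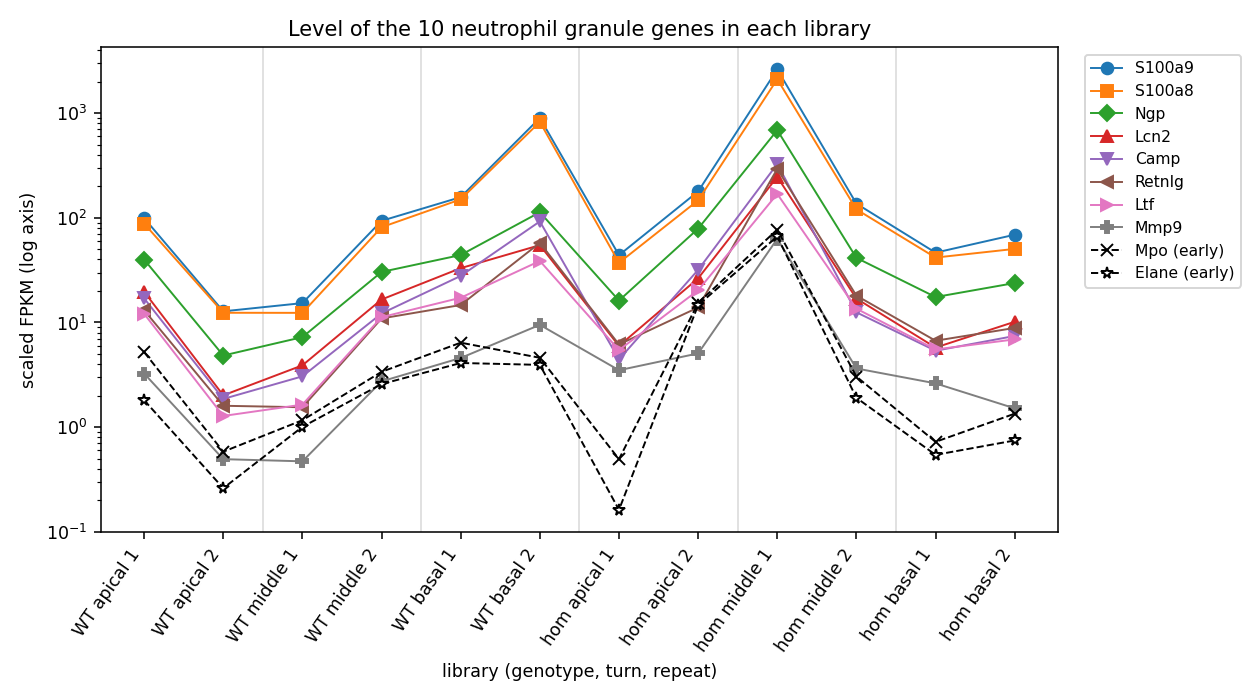
Level of each granule gene in scaled FPKM (log axis) in the 12 libraries, named by genotype (WT wild-type, hom homozygous), turn and repeat. Solid lines and filled symbols are the 8 late genes, and dashed black lines with open symbols or crosses are Elane and Mpo. All 10 lines peak at homozygous middle repeat 1, the late lines have a second peak at wild-type basal repeat 2, and the dashed lines have theirs at homozygous apical repeat 2. The lines join libraries for the eye and mark no order.

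By the median over libraries, the order of levels was S100a9 (96.4 scaled FPKM), S100a8 (84.6), Ngp (35.1), Lcn2 (16.7), Camp (12.3), Retnlg (12), Ltf (11.7), Mmp9 (3.37), Mpo (3.21) and Elane (1.86). FPKM is a level per length, so these can be set side by side. S100a9 was above S100a8, S100a8 above Ngp, Ngp above Lcn2, Ltf above Mmp9 and Mpo above Elane in all 12 libraries. The neighbours Lcn2 and Camp kept their order in 9 libraries, Camp and Retnlg in 8, Retnlg and Ltf in 8, and Mmp9 and Mpo in 5, so these steps are not larger than the spread between libraries. Across groups, the sum of the 10 genes was 368 and 6656 in the homozygous middle, 459.6 and 2098 in the wild-type basal, 123 and 532 in the homozygous apical, 133 and 180.1 in the homozygous basal, 47.7 and 265 in the wild-type middle, and 38.1 and 299 in the wild-type apical turn. Each group in this order overlapped the next. The homozygous middle thus overlapped the wild-type basal turn, and the homozygous basal the wild-type middle turn.

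The question of the design is whether the genotypes differ in a turn. In the middle turn all 10 genes were higher in the homozygous libraries, by 2.38 (Elane) to 3.93 (S100a9) on the log2 scale with a median of 3.16, beside a median of 0.04 over all tested genes. None of the 10 was called by limma with Benjamini-Hochberg adjustment with thresholds of 0.01 for the adjusted p and 2 for the fold, where 0.179% of all tested genes were, and the adjusted p ran from 0.127 (Retnlg) to 0.341 (Elane). An unadjusted p under 0.05 was reached by 6 genes (S100a8, S100a9, Ngp, Ltf, Retnlg and Mmp9), against 12.9% of all tested genes that were higher at that level. Both homozygous libraries were above both wild-type ones in all 8 late genes, and in 31.3% of all tested genes. For S100a8 the means were 46.8 ± 48.7 and 1115 ± 1406 scaled FPKM (SD, n = 2 each), with a log2 change of 3.93 (SE 1.54), and the repeats of each group differed by more than their mean. Elane and Mpo overlapped, since homozygous middle repeat 2 (1.91 and 3.04) was below wild-type middle repeat 2 (2.58 and 3.38). Without homozygous middle repeat 1 the median fell to 1.17, with 0.12 for Elane and 1.87 for S100a8. Without homozygous middle repeat 2 the median was 5.16. Each of these fits left 1 library in the homozygous middle group. In bulk tissue, fewer cells of a type and less RNA per cell cannot be told apart.

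In the basal turn the difference went the other way in all 10 genes. The log2 change ran from -2.91 (S100a8) to -1.34 (Mmp9) with a median of -1.85, beside -0.02 over all tested genes. Both homozygous libraries were below both wild-type libraries in each of the 10, and in 27.8% of all tested genes. S100a8 was at 487 ± 477 scaled FPKM in the wild-type libraries and 46.1 ± 6.19 in the homozygous ones (SD, n = 2 each), Camp at 60.1 ± 45.6 and 6.40 ± 1.46, and Elane at 4.02 ± 0.117 and 0.644 ± 0.143. None of the 10 was called, where 4.29% of all tested genes were, and the smallest adjusted p by limma was 0.231 (S100a8). No member had an unadjusted p under 0.05 by limma, which 32.4% of all tested genes had in either direction. These p-values use 1 spread shared by all 6 groups, so the repeats of other turns enter them. The SE for Elane was 1.45 on the log2 scale, though its wild-type and homozygous basal repeats were 1.04-fold and 1.37-fold apart. Without wild-type basal repeat 2 the median was -1.55, Retnlg was at -0.85, and Elane and Mpo were at -1.64 and -1.88.

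In the apical turn 9 of the 10 genes overlapped between genotypes. The log2 changes were 0.66 (Mpo) to 1.27 (S100a9) with a median of 1.08 beside -0.03 over all tested genes, none was called where 0.179% of tested genes were, and the adjusted p ran from 0.684 to 0.867 by limma. Mmp9 was the gene without overlap, at 1.87 ± 1.95 against 4.28 ± 1.11 scaled FPKM (SD, n = 2 each), and 26.9% of all tested genes lay apart in that direction. Without wild-type apical repeat 2 the median was -0.20 and 8 of the 10 genes were below 0, and without homozygous apical repeat 2 it was 0.15 with 4 below 0, so the direction in this turn rested on single libraries. Averaged over the 3 turns the change was 0.42 (Camp) to 0.98 (Ngp), with a median of 0.74, and none was called where 0.376% of tested genes were. The smallest adjusted p by limma for this mean was 0.517. Homozygous middle repeat 1 left out, this median was 0.07, with 4 of the 10 genes below 0.

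**Figure D2:**
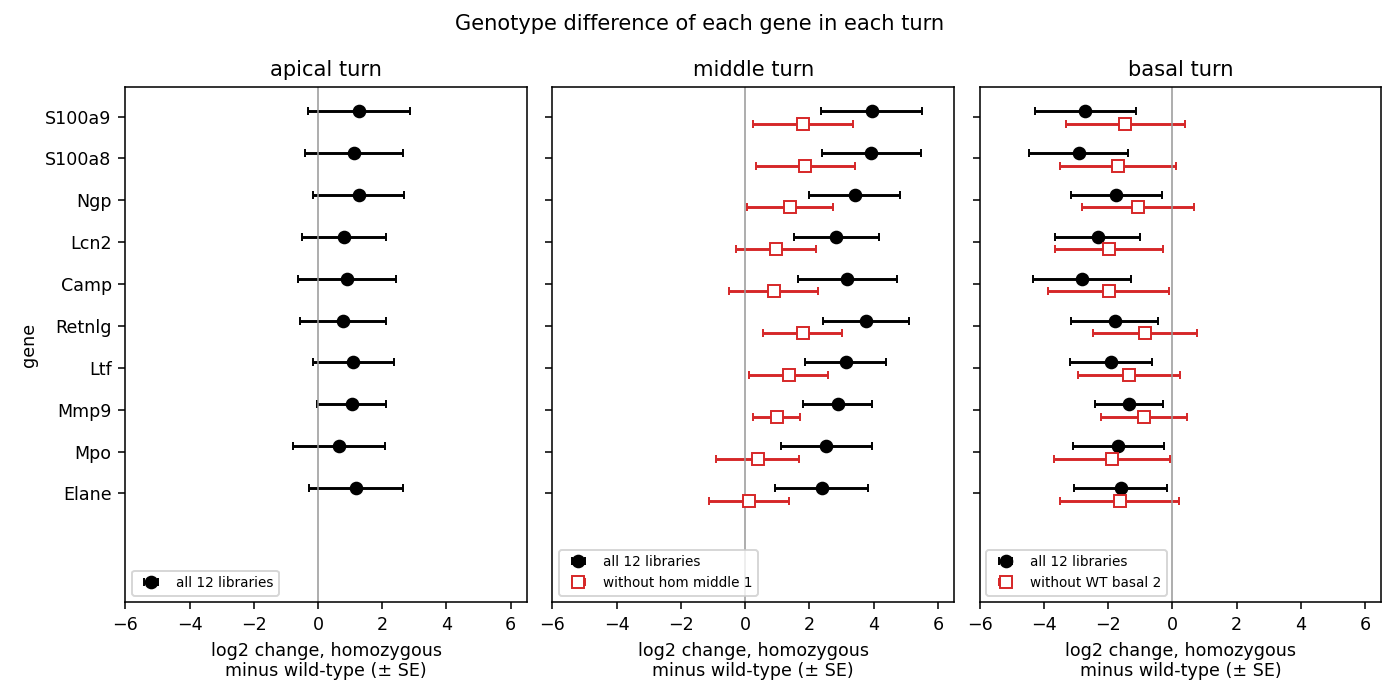
Log2 change of each granule gene, homozygous minus wild-type, on the log2(scaled FPKM + 1) scale, in the apical, middle and basal turn, with bars of 1 SE from limma. Black circles use all 12 libraries, and open red squares leave out homozygous middle repeat 1 (middle turn) or wild-type basal repeat 2 (basal turn). The points of the basal turn lie below 0 and the others above it, and those of the middle turn come closer to 0 in the reduced set.

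The genotype difference was then set against itself between turns. From the middle to the basal turn it fell in all 10 genes, by 4.0 (Elane) to 6.85 (S100a8) on the log2 scale, with a median of -5.16 beside -0.12 over all tested genes. None of the 10 was called by limma, where 8.91% of all tested genes were, and the adjusted p ran from 0.0519 (S100a8) to 0.188 (Elane). An unadjusted p under 0.05 was reached by all 8 late genes and by neither Elane nor Mpo, against 19.5% of tested genes that were lower at that level. Without homozygous middle repeat 2, 1 gene, Mmp9, was called at an adjusted p of 0.00914 by limma with a log2 difference of -6.11, the other 9 had adjusted p of 0.0190 to 0.0378, and 3.08% of all tested genes were called in that fit. The median was -3.27 without homozygous middle repeat 1, and the smallest adjusted p 0.133 (Mmp9). The same libraries differed in nerve and epithelial genes, as given above. Among the middle and basal libraries, the 4 with the higher nerve sums had 47.7 to 265 as the sum of the 10 granule genes. The 4 with the lower nerve sums had 368 to 6656. These sets nearly met in nerve sum, at 6883 in wild-type middle repeat 2 and 6192 in wild-type basal repeat 2. The 4 apical libraries had nerve sums of 1696 to 3477 scaled FPKM and granule sums of 38.1 to 532. The part of tissue content in the difference was not tested. The middle minus apical difference had a median of 2.09, with none called where 0% of tested genes were (no gene at all), 1306 genes at an unadjusted p under 0.05 by limma and none of the 10 among them. This median was 0.14 without homozygous middle repeat 1 and 4.08 without repeat 2. The basal minus apical difference had a median of -3.01, with none called where 0.796% of tested genes were, and the median was -1.74 without wild-type apical repeat 2 and -4.34 without repeat 1.

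Turns were also compared over both genotypes. The middle turn was above the apical turn by a median of 1.15 on the log2 scale with all 10 genes higher, the basal above the apical by 0.85 with 9 of 10 higher, and the basal below the middle by a median of -0.34 with all 10 lower. None of the 10 was called in any of the 3, and the smallest adjusted p by limma was 0.521, 0.449 and 0.919. Of all tested genes, 0.037% were called between middle and apical, 0.444% between basal and apical and 0% between basal and middle. At an unadjusted p under 0.05 limma gave none of the 10 in these 3 comparisons, and 12.1%, 25.4% and 6.83% (1107) of all tested genes. Single libraries set these medians. Leaving out homozygous middle repeat 1 took the middle minus apical median from 1.15 to 0.15 and the basal minus middle median from -0.34 to 0.60, and leaving out homozygous middle repeat 2 took them to 2.22 and -1.32. The basal minus apical median was 0.18 without wild-type apical repeat 2 and 1.51 without repeat 1.

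Early and late genes were set against each other within each library. The sum of Elane and Mpo was 2.40% and 2.26% of the sum of the 8 late genes in the wild-type apical repeats, 4.77% and 2.30% in the wild-type middle, 2.34% and 0.408% in the wild-type basal, 0.535% and 5.98% in the homozygous apical, 2.20% and 1.36% in the homozygous middle, and 0.963% and 1.17% in the homozygous basal repeats. The share thus ranged over 14.6-fold, against 175-fold for the sum of the late genes. Homozygous middle repeat 1, with the highest level of both kinds, had a share of 2.20%, close to the median of 2.23%. Wild-type basal repeat 2, second in the late genes at 2089 scaled FPKM, had the lowest share, and homozygous apical repeat 2 the highest. The genotypes overlapped in the apical and basal turns. In the middle turn both homozygous shares were below both wild-type shares, and with 2 libraries against 2 an exact two-sided permutation test cannot go below p = 0.333.

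**Figure D3:**
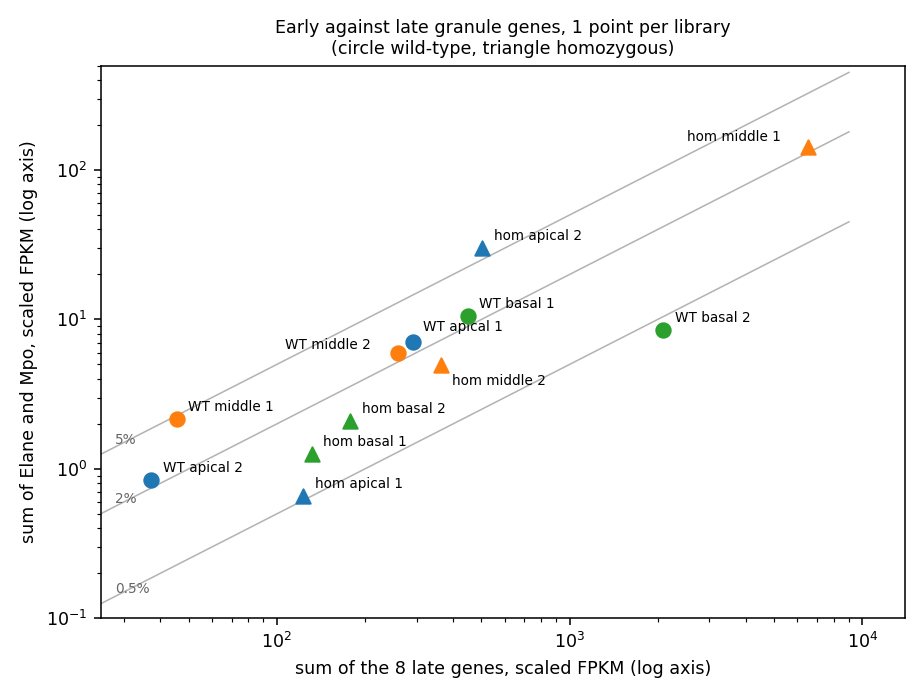
Sum of Elane and Mpo (vertical, scaled FPKM, log axis) against the sum of the 8 late granule genes (horizontal, scaled FPKM, log axis), 1 point per library, circles wild-type, triangles homozygous, blue apical, orange middle and green basal turn. Grey lines mark early sums of 0.5%, 2% and 5% of the late sum. Wild-type basal repeat 2 lies under the lowest line at 0.408%, homozygous apical repeat 2 above the highest at 5.98%, and homozygous middle repeat 1 at the upper right at 2.20%.

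Ratios within each kind moved less. S100a8 and S100a9 together made up 60.8% to 82.5% of the late sum, highest in wild-type basal repeat 2. Mpo was 1.05 to 3.05 times Elane, highest in homozygous apical repeat 1, where both were at 0.494 or lower. Ngp was 1.22 to 3.65 times Camp, lowest in wild-type basal repeat 2 and highest in homozygous apical repeat 1. Over the 12 libraries, on the log2(scaled FPKM + 1) scale, the 28 pairs of late genes had Pearson's r of 0.934 to 0.999, Elane and Mpo 0.985, and the 16 pairs of an early and a late gene 0.831 to 0.917. Spearman's rho was 0.895 to 1, 0.951 and 0.727 to 0.916. Without homozygous middle repeat 1 the ranges of r were 0.881 to 0.998 for late pairs, 0.963 for the early pair and 0.592 to 0.827 for mixed pairs. The mean of the early genes against that of the late genes had r = 0.885 and rho = 0.902, and r = 0.699 over the 10 libraries left without homozygous middle repeat 1 and wild-type apical repeat 2. These points share turns, and perhaps mice, and are given as a description.

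Genes with the most similar profile were found among all other tested genes. The 8 most like the mean of Elane and Mpo were Prtn3 (r = 0.992), Ctsg (0.990), Ms4a3 (0.978), Ly6c2 (0.944), Mcm7 (0.942), Fcnb (0.936), Cd177 (0.933) and Nkg7 (0.932). Prtn3, proteinase 3, and Ctsg, cathepsin G, are serine proteases of primary granules like Elane. Prtn3 ranged from 0.205 to 73.6 scaled FPKM and Ctsg from 0 to 28.3, both highest in homozygous middle repeat 1. The 8 most like the mean of the late genes were Ifitm6 (0.987), Hp (0.986), Ly6c2 (0.986), Mmp8 (0.982), Cd177 (0.976), Wfdc21 (0.973), Chil3 (0.973) and Slpi (0.969). Ly6c2 and Cd177 stand on both lists. Hp, haptoglobin, Mmp8, the neutrophil collagenase, and Cd177, a surface receptor, are known from secondary granules, and Chil3 reached 130 scaled FPKM in homozygous middle repeat 1 from 1.29 in the lowest library. Gene by gene, Elane was most like Prtn3 (0.991), Mpo like Ctsg (0.993), Ngp like Ly6c2 (0.988), Camp like Chil3 (0.989), Ltf and Lcn2 like Ifitm6 (0.992 and 0.988), Retnlg, S100a8 and S100a9 like Mmp8 (0.985, 0.985 and 0.983), and Mmp9 like Gda (0.971). Each r is over 12 libraries on the log2 scale and is no test.

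Other genes of the granulocyte were followed as lists. Of 10 further primary granule and promyelocyte genes, 9 were in the table and 7 were tested. None was called in the turns' genotype comparisons, and Hexa, a lysosomal enzyme found in most cells, was the only one called in any of the 10 comparisons, with a fall of the genotype difference from the middle to the basal turn (-1.52, SE 0.31, adjusted p = 0.00967 by limma). Cd63, Hexa and Gusb, which most cells express, had the highest mean levels of that list, and Bpi was at 0 in 10 libraries. Of 15 further secondary and tertiary granule genes, all in the table, 13 were tested and none was called in any of the 10 comparisons, with a median log2 genotype change of 1.68 (middle turn) and -1.11 (basal turn). Lyz2, lysozyme, was at 461 scaled FPKM in wild-type basal repeat 2 and 454 in homozygous middle repeat 1, against 26.8 to 88.9 in the other 10, and Chil3 and Pglyrp1 followed it in mean level. Of 20 genes of mature neutrophils, 19 were in the table and 14 were tested, none called, with medians of 1.76 and -0.97 in the same turns. Ly6g, the surface mark of mouse neutrophils, was at 14.7 scaled FPKM in homozygous middle repeat 1 and at 0 to 1.99 in the other 11, and the receptor Cxcr2 was at 11.6 and at 0.0395 to 2.38. Wfdc21, Mxd1 and Stfa1 had the highest means of that list.

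Of 15 regulators of granulopoiesis, 14 were tested. Gfi1, a repressor needed for neutrophil differentiation and also for hair cells, fell in the homozygous basal turn (-2.73, SE 0.36, adjusted p = 0.00484 by limma) and between the middle and basal genotype differences (-3.45, SE 0.51, adjusted p = 0.00360), and no other regulator was called. Gfi1 was at 4.63 and 8.54 scaled FPKM in the wild-type basal libraries and 0.0915 and 0.111 in the homozygous basal ones, where the hair cell gene Otof was also at 0.0979 and 0.108. Unlike the granule genes, Gfi1 was not high in homozygous middle repeat 1 (3.0). Cebpe, which drives secondary granule genes, was at 9.86 scaled FPKM there and at 0 to 1.91 in the other 11. Csf3r, the receptor of G-CSF, was at 14.2 there and at 0.397 to 3.0 elsewhere. Cxcl12, which retains neutrophils in the marrow, Cd34 and Kit had the highest means of the list, and Cxcl12 reached 110.4 scaled FPKM in homozygous middle repeat 1.

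Genes of most other listed cells of blood, marrow and bone were high in the same libraries. Of the 6 tested eosinophil genes all were highest in homozygous middle repeat 1, and the list summed there to 524 scaled FPKM against 0.0833 to 65.4 in the others, with Prg2, the major basic protein, at 326 and at 0 in wild-type apical repeat 2. Cell cycle genes summed to 146 there and to 6.55 to 24.1 elsewhere, megakaryocyte genes to 148 and 8.45 to 36.8, osteoclast genes to 356 and 15.0 to 92.4, and B lineage genes to 313 and 37.2 to 151. Among them, 8 of 9 tested cell cycle genes and 10 of 11 tested B lineage genes were highest in that library. Erythroid genes were highest in wild-type basal repeat 2 (5022 scaled FPKM) and next in homozygous middle repeat 1 (3596), and Slc4a1, the band 3 protein of red cells, was at 41.5 in the latter and at 1.10 in the former. Genes of osteoblasts and osteocytes summed to 3577 and 3527 scaled FPKM in the same 2 libraries and to 198 to 1350.0 elsewhere. Macrophage and monocyte genes moved less, from 71.2 to 334. They too were highest in wild-type basal repeat 2, at 334, and next in homozygous middle repeat 1, at 307. Of the latter sum 64.5 was Ly6c2, which was itself among the genes most like the late granule genes. Csf1r, the macrophage receptor of M-CSF, was at 8.12 to 22.5 over all 12. T and NK cell genes were low, with 1 of 10 tested. Their sum was also highest in homozygous middle repeat 1, at 12.2 scaled FPKM with Nkg7 at 7.44, against 0.670 to 3.83 in the other 11. Nkg7, the tested gene, also stood among the 8 genes most like the mean of Elane and Mpo. Mast cell and basophil genes did not follow this pattern. Their sum was lowest in wild-type basal repeat 2, at 8.54, and highest in homozygous apical repeat 1, at 70.3. Gata2, which other cochlear cells express, made up most of the sum in every library but homozygous middle repeat 1. There Gata2 was 24.6 of 56.0 scaled FPKM, and Prss34, Mcpt8 and Cpa3, of basophils and mast cells, were highest there at 9.32, 5.66 and 5.47.

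Of these lists, 1 osteoclast gene (Nfatc1, -1.63, SE 0.29, adjusted p = 0.00563 by limma, basal minus middle genotype difference) and 1 endothelial gene (Emcn, in 3 comparisons) were called, and no gene of the macrophage, erythroid, B lineage, T and NK, eosinophil, mast cell, megakaryocyte, osteoblast and cell cycle lists was. Emcn, endomucin, fell in the homozygous basal turn by 1.59 (adjusted p = 0.00740 by limma), and the sum of the endothelial list ran only from 77.3 to 199 scaled FPKM. Across the 12 libraries the log2 sum of the eosinophil list had r = 0.932 with the mean of the late granule genes, the cell cycle list 0.912, the osteoclast list 0.898, the megakaryocyte list 0.898, the erythroid list 0.819, the B lineage list 0.739, the osteoblast list 0.676 and the macrophage list 0.656. Without homozygous middle repeat 1 they were 0.855, 0.883, 0.781, 0.777, 0.815, 0.465, 0.494 and 0.542. Over all 12 libraries the endothelial, cochlear and mast cell lists had 0.283, 0.199 and 0.148, and the nerve list -0.477. The part of marrow, blood or bone in the tissue pieces was not tested.

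**Figure D4:**
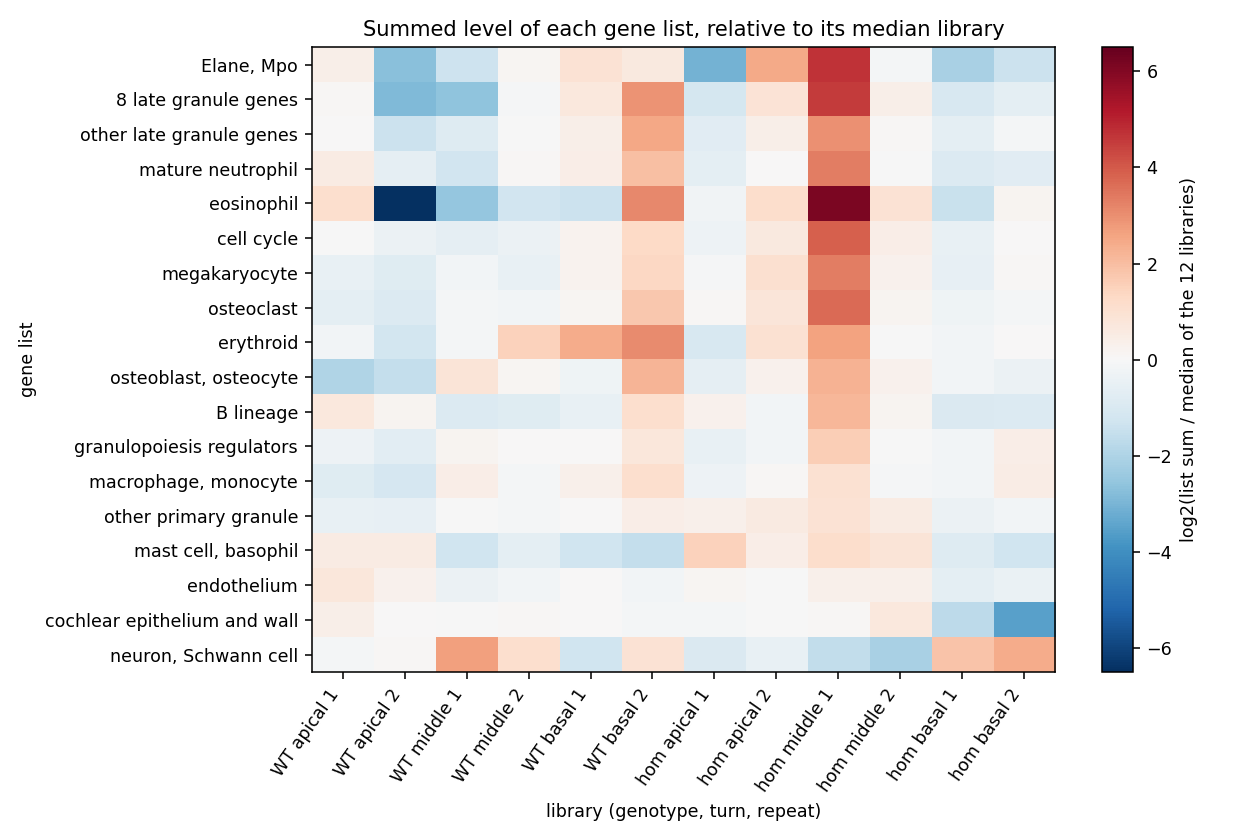
Summed level of each gene list in each library, as log2 of its ratio to the list's median over the 12 libraries (colour bar, red above and blue below the median), with lists as rows and libraries as columns. The column of homozygous middle repeat 1 is red from the granule rows down to the B lineage row. That of wild-type basal repeat 2 is red or light red over the same rows, except for a pale Elane and Mpo row. The endothelial row is pale throughout, and the cochlear row is pale outside the homozygous basal columns.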

How the data were processed

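RNA of the 12 libraries was extracted with a miRNeasy Micro kit, made into libraries with a VAHTS kit and sequenced as paired reads on a NovaSeq. The authors cleaned reads with fastp 0.20.0, aligned them to mm10 with STAR 2.7.3a, kept unique reads and calculated the deposited FPKM with StringTie 2.0, and these FPKM are the values used here. Their counts and DESeq2 results were not used here. Depth is unknown, and precision can be judged only from the repeats.

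Each library was scaled by the median of its ratios to the mean profile, taken over the 11552 genes at 1 FPKM or higher throughout, which gave factors of 0.920 to 1.06. Genes reaching 1 FPKM in 2 libraries or more, 16215 of them, entered limma 3.58.1 (R 4.3.3) as log2(scaled FPKM + 1). The model had 6 group means and an eBayes trend (6 residual and 2.78 prior degrees of freedom), tests were two-sided, and p-values were adjusted by Benjamini-Hochberg over all tested genes. Calls needed an adjusted p below 0.01 together with more than a 2-fold change. Changes on this scale understate those of genes near 1 FPKM. The fit was tested on simulated data. Figures used matplotlib 3.10.9 in Python 3.11.15.

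The 10 genes and all gene lists were chosen with earlier results of these data known, and Csf3r stands on 2 lists and Ly6c2 on the macrophage and monocyte list. Named were all 10 genes, list genes that were called or of highest level, and the genes of most similar profile, though not all genes that this rule covers are reported. The alternatives tried were 2 lower pseudocounts (0.1 and 0.01), a filter at 5 FPKM or none, unscaled FPKM, equal sums, quantile normalization, no trend, library weights, blocks by repeat number, other thresholds, the libraries of 1 turn and each library left out.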

Additional observations from a re-analysis of the deposited data

Results flagged for a closer look

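The genotype difference pointed opposite ways in 2 turns, with no overlap of the libraries in either turn, for all 8 late genes. Each was higher in both homozygous middle libraries and lower in both homozygous basal libraries than in the wild-type ones. Of all tested genes, 31.3% lay above in the middle turn in this way and 27.8% below in the basal turn. The share that did both was not counted. For the difference between these turns, 8.91% of all tested genes were called. The difference of the log2 changes, basal minus middle, was -6.85 for S100a8, -6.65 for S100a9, -6.01 for Camp, -5.56 for Retnlg, -5.17 for Lcn2, -5.15 for Ngp, -5.04 for Ltf and -4.22 for Mmp9, with adjusted p of 0.0519 to 0.0949 by limma, so none passed the threshold. Mmp9 was also opposite between the basal and apical turns, at -2.39 with an adjusted p of 0.335 by limma. Homozygous middle repeat 1, wild-type basal repeat 2 and the crossed nerve genes touch the middle and basal values, and their part was not tested. The result holds for the turn labels as given. Whether the middle and basal labels of 1 genotype are exchanged was not tested. The sums of the 10 genes overlapped between the wild-type basal (459.6 and 2098 scaled FPKM) and homozygous middle libraries (368 and 6656). They also overlapped between the wild-type middle (47.7 and 265) and homozygous basal libraries (133 and 180.1). Such overlap was not particular to these pairs. The homozygous middle libraries also overlapped the homozygous apical ones (123 and 532), and the homozygous basal libraries the wild-type apical ones (38.1 and 299). S100a8 and S100a9 made up 60.8% to 82.5% of the late part of these sums. Elane did not overlap between the wild-type middle (1.01 and 2.58) and homozygous basal libraries (0.543 and 0.746). The share of all tested genes that lay apart in this way was not counted.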

How the results depend on the processing

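None of the 10 genes was called in any of the 10 comparisons under any alternative but 1. In the main fit, 0% to 8.91% of all tested genes were called, depending on the comparison. The alternative that differed was leaving out homozygous middle repeat 2, in the basal minus middle difference of the genotype effect. That fit kept homozygous middle repeat 1, the library that stood apart, as the only one of its group. The log2 change of a gene in 1 turn was recomputed under every alternative, and it turned sign in 12 cases and kept it in 708, the 12 all in the apical turn with 1 library left out. Leaving out 1 library there gave -0.69 to 3.05 for Elane, -1.07 to 2.38 for Mpo, -0.14 to 2.67 for Ngp, -0.43 to 2.22 for Camp, -0.16 to 2.36 for Ltf, -0.58 to 2.20 for Lcn2, -0.45 to 1.99 for Retnlg, -0.25 to 2.49 for S100a8 and -0.16 to 2.71 for S100a9. Other scalings, pseudocounts, filters and fits left every sign in the 3 turns as it was. The log2 ratio of early to late sums moved by more than the spread between repeats in 15 of 24 cases, 12 of them on taking means of log2 levels, which is another quantity. The shared repeat numbers are not stated to pair libraries, and the repeat differences of 2 groups correlated across genes at r = -0.43 to 0.45. With the repeat number as a block, 0 of the 10 genes were called in every comparison, as without it. Of all 16215 tested genes, this fit called none in some comparisons. It called 730 as higher and 237 as lower in the basal minus middle difference of the genotype effect.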
